A study of Mus musculus with 4 samples.

Results

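The genes described here are the 3 chains of collagen V (Col5a1, Col5a2 and Col5a3), the calcitonin receptor gene Calcr and its partner genes Ramp1, Ramp2 and Ramp3. They were taken by gene symbol from the deposited table, and all 7 were found among its 21264 genes. RNA was sequenced from 4 mouse libraries of a single group. These are donor-derived satellite cells, which are muscle stem cells, re-isolated after transplantation of myogenic progenitors of the iPAX3 line (iPax3), a derivative of pluripotent stem cells, that overexpressed NICD3, the intracellular domain of Notch3. The sources used here do not say what drives NICD3 in this line, which strain and age the recipients had or whether animals were pooled. All 4 libraries carry NICD3 and cells without it are not analysed here, so every value is a level with its spread over libraries (SD, n = 4), and none shows an effect of Notch3.

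Collagen V is a minor fibril-forming collagen that starts and limits the thickness of collagen I and III fibrils. Its alpha-1 chain is needed for most of its trimers, usually with the alpha-2 chain, and the alpha-3 chain has a narrower tissue distribution. In mouse muscle, satellite cells are known to make collagen V under Notch control through distal enhancers of Col5a1 and Col5a3, and this collagen acts on Calcr of the same cells. Calcr is a G protein-coupled receptor that raises cyclic AMP, and in satellite cells it helps to keep them quiescent through protein kinase A and the Hippo kinases. Ramp proteins are single-pass membrane proteins that pair with Calcr or with the related receptor Calcrl and change which peptide hormones these receptors bind.

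Promoter sequences are shown for Col5a1 and Col5a3, the chains known as Notch-responsive, for their receptor gene Calcr and for Ramp1, whose window was the only one of those matched to these genes to hold the RBPJ core. Each run holds 250 bases before and 50 bases after the annotated start (RefSeq, GRCm38.p6), read in the direction of the gene. Capitals mark the core letters bound by RBPJ, the DNA-binding partner of NICD (TGGGAA, or TTCCCA on the other strand), and the GC box (GGGCGG or CCGCCC).
Col5a1, chr2:27886175-27886474, plus strand: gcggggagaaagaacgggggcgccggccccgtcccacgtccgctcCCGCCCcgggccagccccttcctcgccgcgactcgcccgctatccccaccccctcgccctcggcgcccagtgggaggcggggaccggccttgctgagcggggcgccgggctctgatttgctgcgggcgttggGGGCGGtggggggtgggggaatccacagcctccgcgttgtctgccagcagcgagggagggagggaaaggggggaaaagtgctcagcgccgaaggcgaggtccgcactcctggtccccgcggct
Col5a3, chr9:20815018-20815317, minus strand: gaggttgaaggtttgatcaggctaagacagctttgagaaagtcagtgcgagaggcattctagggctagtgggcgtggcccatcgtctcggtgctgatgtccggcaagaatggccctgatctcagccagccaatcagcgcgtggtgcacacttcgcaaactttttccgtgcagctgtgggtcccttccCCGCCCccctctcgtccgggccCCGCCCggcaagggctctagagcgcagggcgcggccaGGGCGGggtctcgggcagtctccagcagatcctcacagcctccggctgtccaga
Calcr, chr6:3763574-3763873, minus strand: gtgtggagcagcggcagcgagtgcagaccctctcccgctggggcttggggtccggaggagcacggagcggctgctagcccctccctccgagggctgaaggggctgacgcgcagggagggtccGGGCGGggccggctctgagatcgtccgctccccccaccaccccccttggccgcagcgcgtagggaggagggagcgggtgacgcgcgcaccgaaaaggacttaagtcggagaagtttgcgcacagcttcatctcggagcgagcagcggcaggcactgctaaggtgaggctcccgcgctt
Ramp1, chr1:91179572-91179871, plus strand: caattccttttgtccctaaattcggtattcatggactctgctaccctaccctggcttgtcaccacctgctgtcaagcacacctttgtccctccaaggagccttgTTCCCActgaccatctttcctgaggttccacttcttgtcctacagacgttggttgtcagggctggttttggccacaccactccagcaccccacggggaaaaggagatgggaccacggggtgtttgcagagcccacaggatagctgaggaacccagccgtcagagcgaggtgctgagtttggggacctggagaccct

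The RBPJ core was found in none of the Col5a1, Col5a3 and Calcr windows shown and once, 146 bases before the start, in that of Ramp1. Of all 32851 promoter windows of this length, 25.6% hold the RBPJ core and 35.7% hold a GC box. The Col5a1 window holds 2 GC boxes and 75% G and C, and the Col5a3 window holds 3 with 63.3%. The Calcr window shown holds 1 with 70% G and C, while a second annotated Calcr start (chr6:3764664-3764963) has no GC box and 47.3% G and C. The median over all windows was 52.7% G and C. The Ramp3 window holds 3 GC boxes and no RBPJ core. No window was matched for Col5a2 or Ramp2. A match is only a run of letters, and its absence says nothing about binding elsewhere in the gene.

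The Calcr gene also hosts 2 microRNA genes, Mir489 and Mir653, in introns on its own strand. The mature strand miR-489-3p, known to restrain satellite cell activation in mouse, is shown with its seed (bases 2 to 8) in capitals, since it lies within the transcript whose level is given here; its own level was not analysed here.
mmu-miR-489-3p, chr6:3721922-3721944, minus strand: aAUGACACcacauauauggcagc

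The libraries held 12544138 to 13302916 reads, and levels are given as CPM, the reads of a gene per 1e+06 reads of the library. Intervals are 95% exact binomial intervals that cover counting error only. No label ties a replicate to its own animal, so p-values measure only the spread between these samples, which may be technical. All 12 satellite cell markers reached 1 CPM in every library, with Pax7 between 118 and 142 CPM, so markers of the labelled cell type were present. That level alone does not tell cell types apart, since 11 of 12 endothelial and 10 of 11 mural markers also reached it. Over all genes of the table, 53.6% reached 1 CPM in every library, and the median level was 4.83 CPM. Replicates 1 and 4 differed in base composition. Across 11384 genes that reached 1 CPM in every library and had an annotated transcript, the rank correlation (Spearman) of transcript GC content with a library's deviation from each gene's mean was 0.385 for replicate 1, 0.196 for replicate 2, 0.00384 for replicate 3 and -0.506 for replicate 4.

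Of the 7 genes, 5 reached 1 CPM in every library, against the 53.6% of all genes. The same 5, Col5a1, Col5a2, Col5a3, Calcr and Ramp2, also reached 5 CPM in every library, which 43.2% of all genes did. Ramp1 passed 1 CPM in 3 of 4 libraries and Ramp3 in 0 of 4. Because CPM grows with the length of a transcript, genes are compared below only per kb of exon, the summed exon length in GENCODE M21. On that scale the order of the mean levels was Col5a2, Col5a3, Col5a1, Ramp2, Calcr, Ramp1 and Ramp3. The 3 neighbouring pairs in that order, Col5a2 and Col5a3, Col5a1 and Ramp2, and Ramp1 and Ramp3, overlapped in their ranges over the libraries. The places of Col5a1 and Ramp2 depend on the length used. Over exon bases shared with no other gene Ramp2 was at 26.9 ± 6.06 CPM per kb and Col5a1 at 21.9 ± 8.98, and over the longest transcript they were at 39.96 ± 9.01 and 21.6 ± 8.84.

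**Figure D1:**
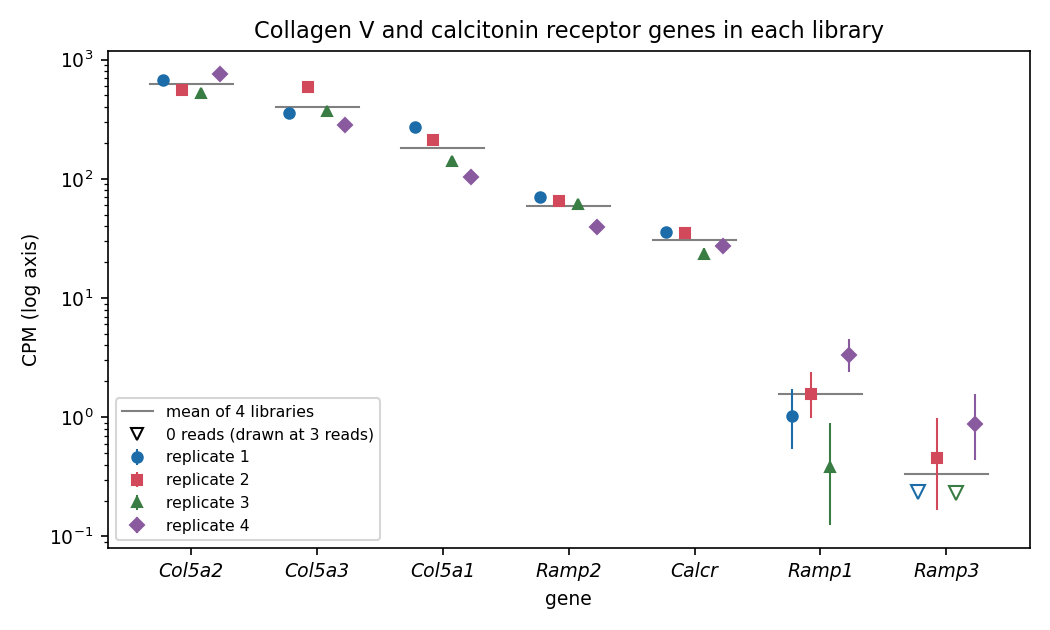
CPM of the 7 genes on a log axis, with each library as a point, its 95% exact binomial interval as a bar and the mean of the 4 libraries as a line. Ramp1 and Ramp3 lie far below the other 5 genes, and Ramp3 had no read in replicates 1 and 3, drawn as open triangles at the level of 3 reads.

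Col5a2 (ENSMUSG00000026042, mm10 chromosome 1, 45374321 to 45503282, minus strand), the alpha-2 chain, had 677, 552, 520.2 and 752 CPM in replicates 1 to 4. It was highest in replicate 4, the library in which both other chains were lowest. Its mean was 625 ± 108 CPM, and its SD of 0.25 on the log2(CPM + 1) scale was below the median SD of 0.59 of the 200 genes nearest to it in level. Of the genes that reached 1 CPM in every library, 93.7% had a lower level per kb.

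Col5a3 (ENSMUSG00000004098, chromosome 9, 20770050 to 20815067, minus strand), the alpha-3 chain, had 354, 584, 368 and 283 CPM in replicates 1 to 4. Replicate 2 was highest, replicates 1 and 3 lay close together, and replicate 4 was lowest. The mean was 397 ± 130.2 CPM and the SD 0.44 on the log2 scale, or 0.21 without replicate 2. Its level per kb was above that of 92.7% of the genes that reached 1 CPM in every library.

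Col5a1 (ENSMUSG00000026837, chromosome 2, 27886425 to 28039514, plus strand), the alpha-1 chain, had 271, 210.5, 141.0 and 104 CPM in replicates 1 to 4. All 4 values lay outside each other's counting intervals, which ran from 262 to 280.4 CPM in replicate 1 and from 98.2 to 110 CPM in replicate 4. The highest was 2.61 times the lowest, the mean was 182 ± 74.3 CPM and the SD 0.61 on the log2 scale, against 0.57 for genes of similar level. A pair of non-coding genes on the other strand share 2.50% of its exon bases.

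Per kb of exon, the chains stood at 65.2 ± 11.3 CPM for Col5a2, 58.4 ± 19.1 CPM for Col5a3 and 21.4 ± 8.76 CPM for Col5a1. Col5a1 was the lowest chain in 4 of 4 libraries. It made up 20.7%, 14.7%, 13.3% and 9.25% of the summed chain level per kb in replicates 1 to 4. Col5a2 made up 45.7%, 34.2%, 43.4% and 59.3%, and Col5a3 33.7%, 51.0%, 43.3% and 31.4%. The summed level ran from 124.9 to 168 CPM per kb, with a mean of 145 ± 19.99. Col5a2 held the largest share in replicates 1 and 4, Col5a3 in replicate 2, and both were nearly equal in replicate 3.

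**Figure D2:**
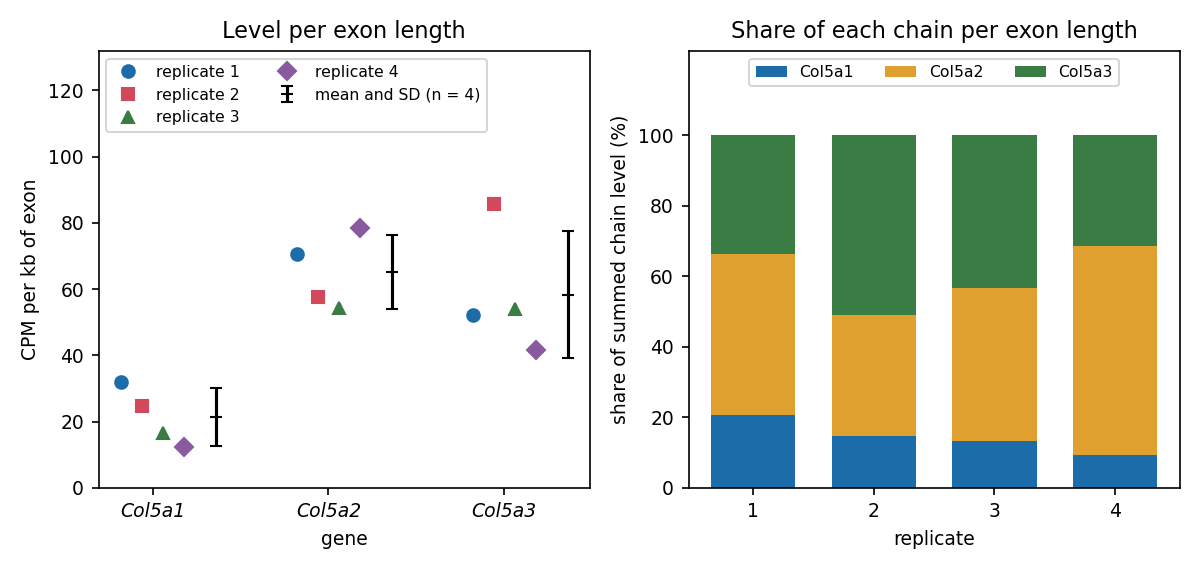
Left, the level of each collagen V chain in CPM per kb of exon, with each library as a point and the mean with its SD (n = 4) as a bar. Right, the share of each chain in the summed level of the 3 chains by replicate, with Col5a1 the smallest share in all 4.

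Differences between genes were taken within each library as log2(CPM per kb + 0.1) and their mean was tested by flipping signs over all 16 assignments (two-sided exact permutation test, Benjamini-Hochberg adjustment over 12 pairs). The smallest exact p that 4 libraries allow is 0.125, so no pair could pass 0.05. Col5a1 minus Col5a2 was -1.14, -1.21, -1.70 and -2.67 in replicates 1 to 4, with a mean of -1.68 ± 0.71. Col5a1 minus Col5a3 was -0.70 in replicate 1 and between -1.79 and -1.70 in the other 3, with a mean of -1.49 ± 0.52. Both had the same sign in 4 of 4 libraries (exact p = 0.125, adjusted 0.136, n = 4). Col5a2 and Col5a3 could not be ordered, since their difference was 0.44, -0.58, 0.0044 and 0.91, with a mean of 0.20 ± 0.63 that held its sign in 3 of 4 libraries (exact p = 0.625, adjusted 0.625, n = 4). Without replicate 4 this difference was -0.04.

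Of the major fibril collagens, Col3a1 and Col1a1 stood above Col5a1 per kb of exon, while the place of Col1a2 depended on the length used. Col3a1, the chain of collagen III, was at 468 ± 101 CPM per kb and Col1a1, the alpha-1 chain of collagen I, at 101 ± 36.2 CPM per kb. Col5a1 lay below Col3a1 by a mean difference of -4.52 ± 0.76 and below Col1a1 by -2.25 ± 0.45, in 4 of 4 libraries each (exact p = 0.125, adjusted 0.136, n = 4). Col1a2, the alpha-2 chain of collagen I, had 18.8, 12.1, 15.0 and 5.60 CPM per kb of summed exon. Each was below Col5a1 in the same library (31.9, 24.8, 16.6 and 12.2 CPM per kb), a pair that was not tested. The summed exon of Col1a2 is 12426 bases long but its longest transcript 5348, against 8490 and 8406 for Col5a1. With the longest transcript as length, Col1a2 stood above Col5a1 in every library. Among 44 collagen genes of the table, ranked per kb of exon, Col5a2 was 6th, Col5a3 7th and Col5a1 11th. Col3a1, Col6a1, Col8a1, Col1a1 and Col6a2 came before them.

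Calcr (ENSMUSG00000023964, chromosome 6, 3685680 to 3764714, minus strand) had 36.1, 35.0, 23.3 and 27.3 CPM in replicates 1 to 4. The values of replicates 1 and 2 were above those of 3 and 4, and their intervals (32.9 to 39.6 and 31.9 to 38.4 CPM) did not overlap those of replicates 3 and 4 (20.8 to 26.1 and 24.5 to 30.4 CPM). The mean was 30.5 ± 6.14 CPM and the SD 0.29 on the log2 scale, against 0.61 for genes of similar level. Its level of 7.79 ± 1.57 CPM per kb lay above 54.0% of the genes that reached 1 CPM in every library. None of its exon bases is shared with another annotated gene.

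Ramp2 (ENSMUSG00000001240, chromosome 11, 101246028 to 101259546, plus strand) was the highest of the 3 partner genes, with 69.8, 64.8, 61.9 and 39.7 CPM in replicates 1 to 4. Replicates 1 to 3 lay close together and replicate 4 was lower. The mean was 59.1 ± 13.3 CPM, or 17.9 ± 4.03 CPM per kb. Of its annotated exon bases, 33.4% are shared with Vps25, a subunit gene of the endosomal sorting machinery on the same strand, through a transcript that runs from Ramp2 into Vps25. Vps25, named after its values were seen, was listed with 6, 13, 5 and 7 reads in replicates 1 to 4. Reads in the shared exons cannot be assigned to either gene from these values, and with the unshared exons alone as length the level of Ramp2 against Calcr was higher, as given below.

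Ramp1 (ENSMUSG00000034353, chromosome 1, 91179822 to 91225196, plus strand) had 13, 21, 5 and 42 reads, which are 1.02, 1.58, 0.383 and 3.35 CPM. Replicate 4 was highest, and its interval of 2.41 to 4.53 CPM did not overlap that of replicate 3, which ran from 0.124 to 0.893 CPM. Ramp3 (ENSMUSG00000041046, chromosome 11, 6658521 to 6677475, plus strand) had 0, 6, 0 and 11 reads. Where it had no read, a limit of 3 counts corresponds to 0.235 CPM in replicate 1 and 0.230 CPM in replicate 3, and the two-sided exact intervals reached 0.288 and 0.282 CPM. The other libraries had 0.451 and 0.877 CPM. Both genes were highest in replicate 4, in contrast to Ramp2.

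Within libraries, Ramp2 lay above Calcr, and Calcr above Ramp1. Calcr minus Ramp2 was -1.18 ± 0.35, with values from -1.64 to -0.77, and -1.76 with the exon bases not shared with Vps25 as length. With the longest transcript as length it was -2.28. Calcr minus Ramp1 was 3.89 ± 0.97, with a fold of 27.5, 17.1, 47.1 and 6.31 per kb in replicates 1 to 4. Ramp1 minus Ramp2 was -5.07 ± 1.30. Each of these had the same sign in 4 of 4 libraries (exact p = 0.125, adjusted 0.136, n = 4).

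Against Ramp3 the size of a difference rests on the pseudocount wherever Ramp3 had no read. Per kb, Ramp2 was at least 124-fold higher than Ramp3 in replicate 1 and at least 113-fold higher in replicate 3, taking 3 counts per library as the limit for Ramp3. In replicates 2 and 4 the ratios were 60.1 and 18.9. For Calcr the corresponding bounds were 54.3 and 35.9, and the ratios 27.4 and 11.0. Ramp1 was at least 1.98-fold higher than Ramp3 in replicate 1, and the ratios were 1.60 and 1.74 in replicates 2 and 4. In replicate 3 Ramp1 per kb was itself under the limit for Ramp3, so their order there is not detectable at this depth.

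The related receptor gene Calcrl, which binds calcitonin gene-related peptide and adrenomedullin when paired with a Ramp protein, had 3.28, 1.503, 2.99 and 4.86 CPM. Its level per kb was 0.647 ± 0.282. Calcr minus Calcrl was 3.46 ± 0.77 and positive in 4 of 4 libraries (exact permutation p = 0.125, adjusted 0.136, n = 4). The smallest difference, 2.69, was in replicate 4. Among the peptide genes, Calca, Calcb and Adm2 were without a read throughout (limit of 0.226 to 0.239 CPM by library), and Iapp, the amylin gene, had 1 read, in replicate 2. Adm, the adrenomedullin gene, had 47.7, 37.9, 18.4 and 20.4 CPM, with replicates 1 and 2 above 3 and 4 as for Calcr. Crcp, a small protein first described with the receptor for calcitonin gene-related peptide, stood at 50.5 ± 19.6 CPM. Of the 11 genes of the family, 5 reached 1 CPM in every library, against 53.6% of all genes.

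Ramp2 and Calcrl are also genes of endothelial cells, and collagen V is made by connective tissue and mural cells, so markers of these cells are set beside the levels. In bulk RNA, fewer cells of a type and less RNA per cell cannot be told apart. Endothelial markers summed to 412, 325, 140.2 and 166 CPM in replicates 1 to 4 and 11 of 12 reached 1 CPM in every library, with Erg at 0 in replicate 3. Ramp2 had 69.8, 64.8, 61.9 and 39.7 CPM in the same order. Both fell from replicate 1 to replicate 2 and were lower again in replicates 3 and 4. The endothelial sum was lowest in replicate 3 and Ramp2 in replicate 4. Mural markers summed to 2070, 1180, 1375 and 1173 CPM with 10 of 11 passing. Their list includes Notch3, which also stands in the Notch list below and whose intracellular domain these cells overexpressed. Acta2 alone made up 1143 CPM of the sum in replicate 1, where Col5a1 was highest. Tagln and Myh11, both named after their values were seen, were also highest there. Of the 10 passing genes, 2 were highest and 3 lowest in that library. Their part in these levels was not tested.

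Fibro-adipogenic markers summed to 1683 to 2334 CPM with 9 of 12 passing, led by Dpt, Col1a1 and Col1a2, of which the latter 2 also stand in the list of fibril collagens. Their sum was highest in replicate 3, where 4 of the 9 passing genes were highest, against 2, 1 and 2 in replicates 1, 2 and 4. Ly6a and Col1a2 were highest in replicate 1, Col1a1 in replicate 2, and Dpt and Cd55 in replicate 4. Their defining gene Pdgfra had 0, 0.376, 2.30 and 0.399 CPM in replicates 1 to 4. Lum had 0.0782, 0, 5.05 and 0.399 CPM, and Dcn 9.15, 2.93, 52.8 and 15.4 CPM. Tendon markers summed to 11.7, 30.4, 262 and 22.6 CPM in replicates 1 to 4, with 4 of 8 passing and Kera at 0 throughout. Glial markers summed to 421, 379, 574 and 581 CPM (6 of 8) and macrophage markers to 27.9 to 174 CPM (6 of 10). Their part was not tested either.

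Library deviations were associated with transcript GC content, as given above, and the 7 genes differ in that content. The longest transcripts of Col5a3, Col5a1 and Ramp2 hold 61.6%, 58.0% and 56.7% G and C, those of Ramp3 and Ramp1 55.4% and 52.6%, and those of Col5a2 and Calcr 49.6% and 46.1%, with a median of 49.6% over the genes that reached 1 CPM in every library. Col5a3, Col5a1 and Ramp2 were lowest in replicate 4, whereas Ramp3 and Ramp1, also above the median, were highest there. Each library's median deviation of genes in the same of 20 GC bins was then subtracted. The SD on the log2 scale then fell from 0.61 to 0.39 for Col5a1, from 0.44 to 0.35 for Col5a3 and from 0.36 to 0.06 for Ramp2, and moved from 0.25 to 0.33 for Col5a2 and from 0.29 to 0.43 for Calcr. For the sparse genes it rose, from 0.69 to 0.92 for Ramp1 and from 0.44 to 0.70 for Ramp3. After the correction Col5a1 and Calcr had nearly the same deviations, 0.44, 0.22, -0.35 and -0.31 for Col5a1 and 0.46, 0.28, -0.39 and -0.35 for Calcr in replicates 1 to 4.

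**Figure D3:**
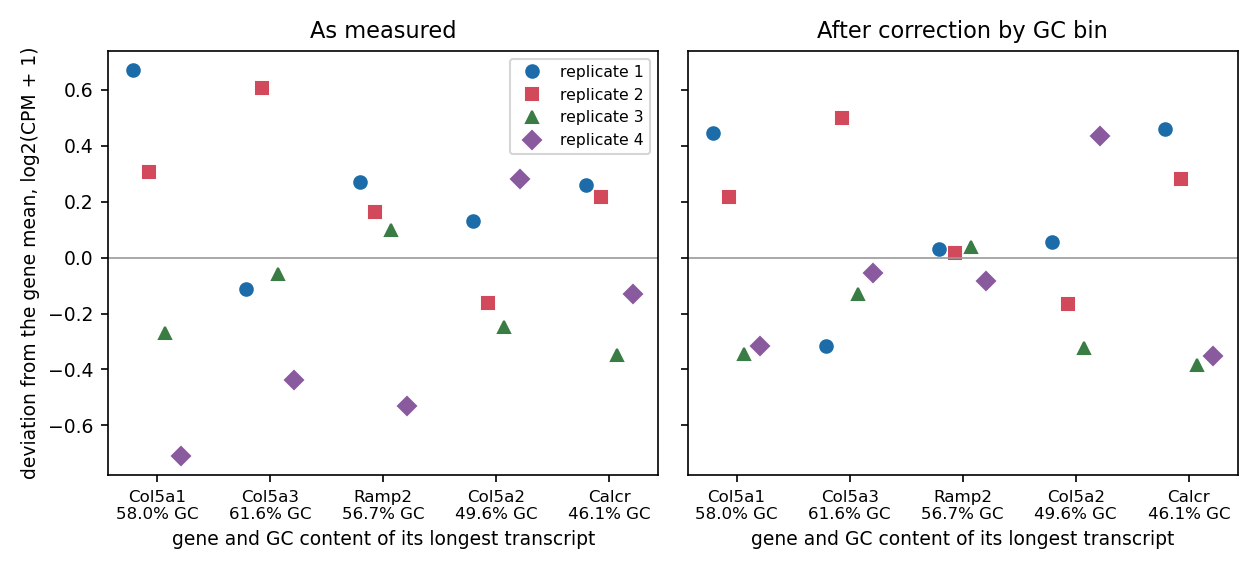
Deviation of each library from the gene's mean on the log2(CPM + 1) scale, as measured on the left and after subtraction of the median deviation of genes in the same GC bin on the right, for the 5 genes that reached 1 CPM in every library. The 4 Ramp2 points close up, and Col5a1 and Calcr take on almost the same spread.

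Likeness of pattern was measured as the root mean square difference of centred log2(CPM + 1) values over the 4 libraries. Between Col5a1 and Calcr it was 0.36 as measured and 0.04 after the GC correction, when Calcr ranked 6th among the 9159 genes compared with Col5a1, a match noticed only after the values were seen. With 4 libraries such matches are common, and 63 genes lay within 0.1 of Col5a1 on the corrected scale. As measured, the gene nearest to Col5a3 among 9201 was another collagen gene, Col4a2 (380 CPM), at 0.01, followed by Klhl25 at 0.04. The nearest genes to Col5a1 were Tmem214 and Tmed3, to Col5a2 Mical2 and Slc38a1, to Calcr Ghr and Csnk1e and to Ramp2 Nckap5 and Nle1, all within 0.04. Among genes of 10 CPM or more, 2.08% had an SD of 1 or more, and none of the 5 members at that level did. Dixon's criterion for 1 library far from the rest was met by 5.92% of those genes and by none of these 5.

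The other genes of the collagen V route were measured as lists, each counted at 1 CPM or more in every library, which 53.6% of all genes reached. The 19 genes that modify and fold procollagen had 18 at that level, with a median of 85.3 CPM against 4.83 CPM for all genes. Serpinh1, the collagen chaperone HSP47, led with 1189 ± 566 CPM per kb, ahead of P4hb, a subunit of prolyl hydroxylase, at 277 ± 129.9 CPM per kb and Colgalt1, a collagen glycosyltransferase, at 48.1 ± 18.7 CPM per kb. Serpinh1 had 4214, 3762, 2504 and 1134 CPM in replicates 1 to 4. Of the 18, 11 (61.1%) were lowest in replicate 4, as Col5a1 and Col5a3 were, against 30.8% of all genes that reached 1 CPM in every library. The part of the GC difference of replicate 4 in this was not tested.

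Enzymes that cleave and cross-link procollagen had 10 of 13 at that level (median 27.1 CPM), with the lysyl oxidase gene Loxl1 at 334 ± 66.0 CPM per kb and Pcolce, an enhancer of procollagen cleavage, at 35.4 ± 16.1 CPM per kb. Of the other fibril-forming collagens 6 of 8 passed (median 24.9 CPM), among them Col1a2 at 12.9 ± 5.57 CPM per kb. Of the matrix partners of collagen V 8 of 11 passed (median 46.3 CPM), led by Sparc, Bgn and fibronectin (Fn1), at 622, 443 and 160.4 CPM per kb. Receptors for collagen other than Calcr had 6 of 11 (median 7.48 CPM). Itgb1, the beta subunit of collagen-binding integrins, was at 197 ± 84.9 CPM per kb, the discoidin receptor gene Ddr1 at 24.3 ± 4.36 CPM per kb and Mrc2, an endocytic collagen receptor, at 7.87 ± 1.69 CPM per kb.

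Downstream of Calcr, 23 of 28 genes of the G protein, cyclic AMP and protein kinase A list reached 1 CPM in every library, with a median of 25.5 CPM. Prkar1a, a regulatory subunit of protein kinase A, led with 238 ± 61.1 CPM per kb, followed by the phosphodiesterase Pde4b at 99.7 ± 22.6 CPM per kb and the adenylyl cyclase Adcy7 at 32.8 ± 2.97 CPM per kb. Gnas, the stimulatory G protein and named after its values were seen, was listed at 21.2 ± 5.59 CPM, with 22.0% of its exon bases shared with Nespas and Gm20721. Of the 10 Hippo genes 9 passed (median 38.8 CPM). Wwtr1, Mob1a and Stk3 led at 28.2 ± 13.5, 27.3 ± 14.4 and 18.6 ± 6.25 CPM per kb. Yap1, the transcriptional co-activator held back by Lats kinases, was at 28.4 ± 2.10 CPM, Lats1 at 33.02 ± 19.4 CPM and Lats2, which shares 42.4% of its exon bases with Gm49361, at 44.6 ± 22.0 CPM, all 3 named after their values were seen.

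On the Notch side, all 9 listed genes passed (median 169 CPM), led per kb by the repressor genes Heyl, Hes1 and Hey1. Heyl and Hey1 had an SD of 0.15 on the log2 scale, below that of each collagen V chain, and the list median was 0.16. The list was not uniform, since Hes1 was at 0.36, above Col5a2 at 0.25. Rbpj was at 0.49, and Notch2 and Hey2 at 0.82, above each chain, all 3 named after their values were seen. Heyl had 976, 810.0, 973 and 823 CPM in replicates 1 to 4. A relation of these genes to the collagen V levels was not tested.

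**Figure D4:**
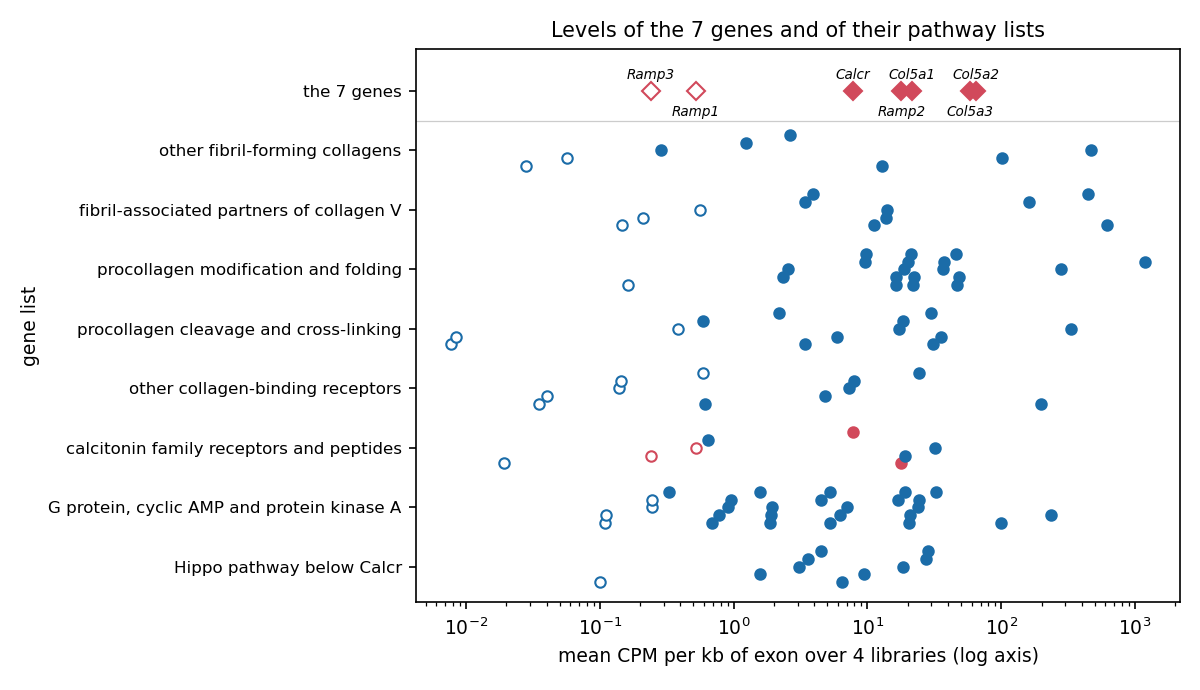
Mean CPM per kb of exon over the 4 libraries on a log axis, with the 7 genes as diamonds above and the genes of 8 pathway lists below. Filled symbols reached 1 CPM in every library, open symbols did not, red marks members, and 4 genes without any read are left out.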

How the data were processed

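RNA sequencing values of 4 libraries of 1 group were analysed. The deposited table holds log2 CPM (log2 of read counts per 1e+06 reads plus an offset of 0.0548 CPM), as judged from its values. Per the labels' protocols, cDNA was made with a low-input amplification kit and libraries with Nextera XT. Per the submitters' processing notes, Trimmomatic 0.33, FastQC, featureCounts, edgeR and mm10 were used. The sources used here do not name the aligner, annotation release, strand setting or treatment of reads shared between genes, which can lower or raise genes with overlapping exons, such as Ramp2.

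The offset was removed, and 100% of the values were whole reads within 0.001. Depth was 12544138 to 13302916 reads, so 1 read is 0.0752 to 0.0797 CPM. Counts differed between every pair of libraries far beyond sampling noise (chi-square over its degrees of freedom, 113 to 231), so none was deposited more than once. Of the identifiers 99.6% matched GENCODE M21 (the mm10 assembly). Without a second group no count model was fitted. The numbered replicates are in 1 group, so nothing is paired.

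Pairs were tested by exact sign-flip permutation. Alternatives were pseudocounts, lengths, scaling (TMM, median of ratios), GC bins, minimum levels and leaving out libraries. Named are the 7 genes, the paired genes, the calcitonin family, the 3 highest genes per kb of the lists (some not reported) and the 2 nearest patterns. Outside these rules are the genes marked as named after their values were seen. So are the markers Pax7, Erg, Notch3, Pdgfra, Lum, Dcn, Ly6a, Cd55 and Kera. The value of 1 marker gene is not reported here. Members and lists were chosen with earlier results of these data known. Methods were tested on simulated reads. Python 3.11.15, numpy 2.4.6, pandas 2.3.3, scipy 1.17.1 and matplotlib 3.10.9 were used.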

Additional observations from a re-analysis of the deposited data

Results flagged for a closer look

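Each named gene, pair and list was examined with Dixon's criterion for 1 library far from the others, in 83 sets. Chance flags about 1 in 20 such sets, and 5.92% of genes of 10 CPM or more were flagged in these libraries. Among the collagen V and receptor genes, the difference Col5a1 minus Col5a3 per kb lay apart in replicate 1, at -0.70 on the log2 scale, against -1.79 to -1.70 in the others. The tendon list summed to 262 CPM in replicate 3, and its members Fmod (163 CPM), Thbs4 (61.8 CPM) and Tnmd (10.9 CPM) lay apart in the same library. Iapp had 0.0752 CPM in replicate 2, which is 1 read, against none in the others.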

How the results depend on the processing

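No paired analysis was possible because all libraries belong to 1 group. Of 108 pair differences under alternatives, 107 kept their sign and none could pass 0.05, since the smallest exact p is 0.125 with 4 libraries and 0.25 with 3. The exception, Col5a2 minus Col5a3, was -0.044 without replicate 4 and ranged from -0.04 to 0.45 over the libraries left out, and was 0.57 with the longest transcript as length. Sizes against Ramp genes depended on the pseudocount: Ramp1 minus Ramp3 was 1.14, and 0.29 with 1 and 2.58 with 0.01 CPM per kb. Col5a1 minus Col3a1 was -5.32 with the longest transcript as length. The order of Ramp2 and Col5a1 turned with either other length, as given with their levels. That of Col1a2 and Col5a1 turned with the longest transcript. The length of unshared exon and the GC-corrected patterns were chosen after seeing the data. Without replicate 4, the mean level of Ramp1 was 0.993 CPM against 1.58 and that of Ramp3 0.1503 CPM against 0.332. Of 56 alternative SDs, 8 moved by over 1.5 times, among them Col5a3 (0.21 without replicate 2), Ramp2 (0.09 without replicate 4) and Ramp1 (0.45 without replicate 4). With a minimum of 5 CPM, 5 fibro-adipogenic, 4 endothelial, 0 tendon and 1 macrophage markers passed, against 9, 11, 4 and 6 at 1 CPM. Depth limits Ramp1 and Ramp3, with at most 42 and 11 reads.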
